A study of Mus musculus with 48 samples.

Results

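Aminoacyl-tRNA synthetases, the enzymes that attach each amino acid to its transfer RNA, were followed in polysomal RNA of mouse astrocytes. Members were the protein-coding genes whose symbol is a single capital letter followed by ars, with or without a final 2, together with Eprs, Farsa and Farsb. The rule found 37 of the 47643 genes in the deposited counts, 20 of them cytosolic and 17 mitochondrial (symbols ending in 2). The RNA came from the dorsal hippocampus of mice of the line Tg(Aldh1l1-eGFP/Rpl10a) JD130Htz, in which the Aldh1l1 promoter, active mainly in astrocytes, drives a fusion of ribosomal protein L10a with eGFP, and every library was a pulldown with an antibody to GFP. Full astrocytes (Astro) were compared with perisynaptic astrocytic processes (PAP), the fine branches that surround synapses, and the comparison asks which RNAs on ribosomes are more or less abundant in the process than in the whole cell. Animals C1, C2 and C3 each gave both compartments, so n = 3 per group. The 48 samples are 8 technical replicates of every such preparation, and they were summed into 6 libraries. No treatment or age is given, and all 6 libraries carried the same transgene. Ribosomes of any other cell that used the promoter would be pulled down as well, and in such bulk libraries fewer cells of a type and less RNA per cell cannot be told apart.

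Each synthetase recognises an amino acid and the matching transfer RNAs, activates the amino acid with ATP and joins it to the end of the transfer RNA, from where the ribosome adds it to the growing protein. Most cells keep separate sets of genes for this step, a cytosolic set that serves ribosomes in the cytoplasm and a nuclear-encoded mitochondrial set that is imported to serve the proteins encoded by mitochondrial DNA. Gars and Kars are exceptions, since each gene gives a cytosolic and a mitochondrial form, and they were counted as cytosolic here. Several cytosolic enzymes join a large multisynthetase complex held together by scaffold proteins, and the others act as free enzymes. Many cytosolic synthetase genes are known targets of the transcription factor ATF4, which is made when amino acids run short. In astrocytes, local translation in fine processes has been described, and it needs charged transfer RNAs at the place where it occurs.

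Astro libraries held 18707844 to 20293538 counts in total and PAP libraries 1829962 to 2980984, with a ratio of medians of 10.6, so depth and compartment cannot be told apart at full depth. Levels are given as TMM-scaled CPM, in which each count is divided by its library total and by a TMM factor that evens out library composition. A count of 3, the floor used here for detection, equalled 0.152 to 0.176 CPM in Astro and 0.991 to 1.55 CPM in PAP, for counting error only. All 37 members passed the filter on low counts among 14618 genes tested, many of the mitochondrial ones through the deeper Astro libraries. The astrocyte label was checked on 12 markers, which summed to 28350 to 41161 CPM in Astro and to 4748 to 18786 CPM in PAP. None was at 0 in any library, and edgeR called 5 of the 12 lower in PAP (Aldh1l1, Gjb6, Slc1a3, Aldoc and Sox9; adjusted p = 0.121 to 0.206 with the animal as a block). B lineage markers summed to 39.6 to 62.6 CPM in Astro and to 2705 to 5712 CPM in PAP. Of the 8 genes in that list, Jchain, Igkc and Mzb1 were higher in PAP, while Cd79a, Derl3 and Ighm were at 0 in all 3 PAP libraries. Nuclear long noncoding RNAs such as Malat1 summed to 200.1 to 347 CPM in Astro and to 2557 to 6312 CPM in PAP, and 5 of 6 were higher. With the animal as a block edgeR still called 3 B lineage markers and 3 nuclear RNAs higher. Neuron markers (480 to 1379 CPM in PAP, 713 to 1364 CPM in Astro), oligodendrocyte markers (535 to 1034 and 811 to 877 CPM) and microglia markers (30.4 to 58.8 and 23.8 to 52.5 CPM) overlapped between the groups in their sums, as did endothelial markers (1.53 to 12.4 and 2.64 to 3.60 CPM). Within those sums edgeR called Snap25 lower (log2 fold change -2.22, adjusted p = 0.0296, or 0.127 with the animal as a block) and Syt1 higher (1.40, adjusted p = 0.0414, or 0.206 with the block) among the neuron markers. Cx3cr1, P2ry12, Aif1 and Tmem119 of the 8 microglia markers, and Cldn5 and Cdh5 of the 6 endothelial markers, were at 0 in every PAP library. Of these and the B lineage genes at 0, Cx3cr1, P2ry12, Tmem119 and Ighm passed the filter on low counts through Astro alone and were called lower (edgeR adjusted p of 0.0211 to 0.0281, and adjusted p of 0.206 to 0.207 with the animal as a block). The part of these other RNAs in the synthetase values below was not tested.

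Cytosolic synthetase transcripts were higher in PAP for 8 of 20 genes and lower for 0. The 8 were Vars, Qars, Iars, Cars, Tars, Eprs, Farsb and Nars, with fold changes on the log2 scale from 1.11 to 3.51. Over all genes tested, 5.92% were higher and 15.4% were lower in PAP by the same test, edgeR's quasi-likelihood test of group alone with an adjusted p under 0.05. The unadjusted p was under 0.05 for 9 cytosolic members in the higher direction (9.39% of all genes tested) and 0 in the lower direction (21.5%). DESeq2 called 9 higher (11.8% of all) and 0 lower (24.2%). Fitted changes were positive in 17 of 20 (5714 of all 14618 genes tested), with a median log2 fold change of 1.30, where the median over all genes tested was -0.53. The 20 genes summed to 1100, 1019 and 1298 CPM in Astro of animals 1, 2 and 3 and to 3494, 2636 and 1773 CPM in PAP, so the lowest PAP sum lay above the highest Astro sum. Group means of these sums were 1139 ± 144 and 2634 ± 861 CPM (SD, n = 3), a ratio of 2.31.

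**Figure D1:**
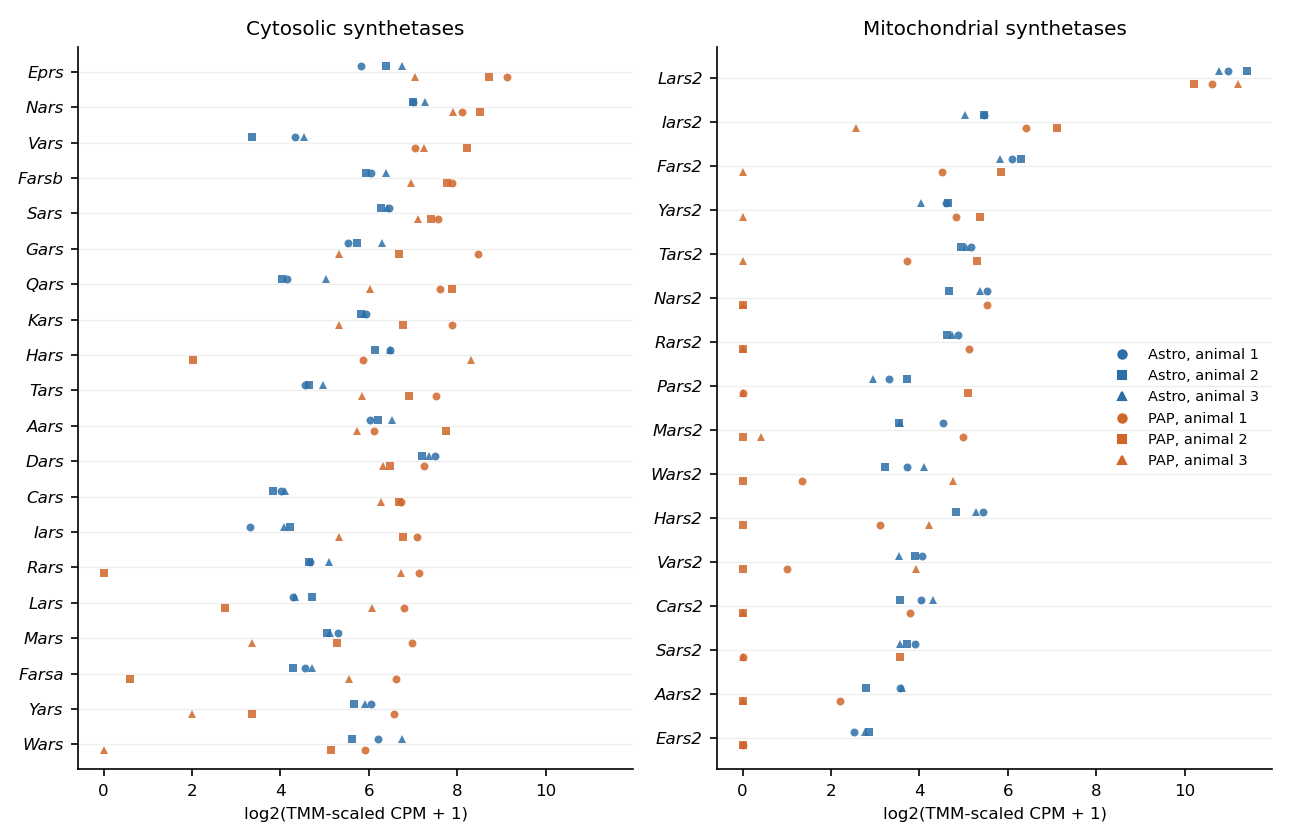
Levels of the 20 cytosolic (left) and 16 of the 17 mitochondrial (right) synthetases as log2(TMM-scaled CPM + 1), with a point for each of the 6 libraries; colour marks the compartment and shape the animal. Cytosolic PAP points lie mostly to the right of the tight Astro points, while many mitochondrial PAP points sit at 0.

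Among the 8 enzymes of the multisynthetase complex, 3 were higher in PAP and 0 lower, where 5.92% and 15.4% of all genes tested were (median log2 fold change 1.55). With the animal as a block 0 were called and the median was 0.88. Qars, which charges glutamine, stood at 16.9, 15.3 and 31.6 CPM in Astro of animals 1, 2 and 3 and at 193, 235 and 63.8 CPM in PAP. It differed by 2.94 ± 0.67 on the log2 scale (SE; edgeR adjusted p = 0.0253), and the smallest PAP value was above the largest Astro value. Iars, the isoleucine enzyme, gave 8.97, 17.7 and 15.9 CPM in Astro against 135, 109 and 39.3 CPM in PAP. Its log2 fold change was 2.73 ± 0.71 (SE; edgeR adjusted p = 0.0389), again with no overlap. Eprs, a fusion of the glutamate and proline enzymes, read 55.6, 82.8 and 106 CPM in Astro and 559, 420 and 131 CPM in PAP. The change was 2.18 ± 0.59 (SE; edgeR adjusted p = 0.0448), and PAP of animal 3 lay only just above the highest Astro library.

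The other 5 complex enzymes did not pass the test. Kars (lysine) read 60.2, 55.5 and 58.4 CPM in Astro and 236, 109 and 39.0 CPM in PAP, with animals 1 and 2 above every Astro library and animal 3 below them. Mars (methionine) gave 38.4, 32.2 and 34.0 CPM in Astro and 125, 38.1 and 9.25 CPM in PAP, with animal 1 above, animal 2 inside and animal 3 below the Astro range. Its exons overlap Ddit3 on the opposite strand by 68 bases. For Lars, the leucine enzyme, Astro libraries gave 18.6, 25.2 and 19.1 CPM and PAP libraries 110, 5.67 and 66.1 CPM, so animal 2 went the other way. Rars, the arginine enzyme, split further: 24.6, 24.1 and 33.3 CPM in Astro were set against 139, 0 and 104 CPM in PAP. Dars (aspartate) alone in the complex had a negative fit, -0.62 on the log2 scale, with 181, 145 and 163 CPM in Astro and 152, 87.6 and 79.0 CPM in PAP. The PAP value of animal 1 fell inside the Astro range there.

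Of the 12 free cytosolic synthetases, 5 were higher in PAP and 0 lower, beside 5.92% and 15.4% of all genes tested (median log2 fold change 1.11). With the animal as a block 0 were called and the median was 0.98. Vars, which charges valine, had the largest change of any member that rose: 19.3, 9.33 and 22.2 CPM in Astro against 131, 298 and 151 CPM in PAP. The log2 fold change was 3.51 ± 0.60 (SE; edgeR adjusted p = 0.0208). Cars, the cysteine enzyme, was the most even of the 8 between animals in PAP, at 106, 102 and 77.0 CPM, against 15.1, 13.3 and 16.2 CPM in Astro. It changed by 2.67 ± 0.53 (SE; edgeR adjusted p = 0.0208). Tars (threonine) went from 22.6, 23.9 and 30.003 CPM in Astro to 182, 119 and 56.2 CPM in PAP, a log2 fold change of 2.22 ± 0.60 (SE; edgeR adjusted p = 0.0431). None of these 3 genes overlapped between the groups.

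Nars and Farsb had the smallest changes of the 8. Nars (asparagine) stood at 127, 127 and 154 CPM in Astro and at 276, 365 and 238 CPM in PAP (log2 fold change 1.11 ± 0.31, SE; edgeR adjusted p = 0.0490). Farsb encodes the beta subunit of the phenylalanine enzyme, and its values were 64.8, 60.7 and 83.2 CPM in Astro and 234, 216 and 124 CPM in PAP (1.46 ± 0.41, SE; edgeR adjusted p = 0.0497). Both sit just inside the threshold. Farsa, the alpha subunit of the same enzyme, gave 22.7, 18.4 and 25.3 CPM in Astro and 96.4, 0.515 and 45.6 CPM in PAP, so its PAP library of animal 2 held 1 count where the partner subunit held 420. Sars, the serine enzyme, had 87.1, 76.5 and 83.7 CPM in Astro and 188, 169 and 138 CPM in PAP. Its groups did not overlap, yet edgeR gave an adjusted p of 0.098 for a change of 1.00 ± 0.35 (SE), while DESeq2 called it.

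The remaining free enzymes also differed between the PAP animals. Gars (glycine) gave 45.5, 52.2 and 77.3 CPM in Astro and 353, 101 and 39.0 CPM in PAP. Hars (histidine) ranged from 69.2 to 88.8 CPM in Astro and read 57.7, 3.09 and 318 CPM in PAP. Aars, the alanine enzyme, was at 64.5, 72.9 and 91.0 CPM in Astro and at 68.9, 215 and 51.9 CPM in PAP. Each of these had a PAP library above and a PAP library below the whole Astro range, and it was a different animal that was highest each time. Yars (tyrosine) stood at 65.2, 49.5 and 59.8 CPM in Astro against 94.4, 9.28 and 2.97 CPM in PAP. Wars (tryptophan) gave 72.9, 48.1 and 107 CPM in Astro against 59.2, 34.5 and 0 CPM in PAP. With Dars, these were the only cytosolic members with a negative fit, at -0.71 for Yars and -1.28 for Wars on the log2 scale.

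None of the 8 calls was kept with the animal as a block in the same edgeR model: the adjusted p was 0.206 for Vars, Qars, Cars and Eprs, 0.213 for Iars, 0.226 for Tars, 0.232 for Nars and 0.233 for Farsb. In that fit 0 members were called, 5 cytosolic members were higher at an unadjusted p under 0.05 (5.42% of all genes tested), and by adjusted p 0.876% of all genes tested were higher and 0.0342% lower. Leaving out any 1 of the 3 Astro libraries also ended all 8 calls (adjusted p of at least 0.0689 in edgeR), and without a filter on low counts only Vars was called of the 8. Libraries did not overlap, with PAP higher, for 9 of the 20 cytosolic genes, which was the case for 10.9% of all genes tested.

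By Ensembl identifier and position on GRCm38, the 8 were Vars (ENSMUSG00000007029, chr17:35000987-35016322), Qars (ENSMUSG00000032604, chr9:108507706-108515941), Iars (ENSMUSG00000037851, chr13:49682100-49734267), Cars (ENSMUSG00000010755, chr7:143557230-143600090), Tars (ENSMUSG00000022241, chr15:11382301-11399665), Eprs (ENSMUSG00000026615, chr1:185363044-185428360), Farsb (ENSMUSG00000026245, chr1:78417975-78488897) and Nars (ENSMUSG00000024587). Counts were per gene over its exons. Farsb shares 2315 exonic bases with Sgpp2 on the opposite strand, which held at most 38 counts in any library.

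The promoters of synthetase genes were read for short motifs because fits were positive for 17 of 20 cytosolic members and because ATF4 is a known regulator of many of them. RefSeq promoter windows on GRCm38.p6 (250 bases before to 50 after the start of the gene) were matched for 27 of the 37 members, 13 cytosolic and 14 mitochondrial. The core TGATGNAA, the element bound by ATF4 with a C/EBP partner, was searched on both strands. It occurred in 5 of 13 cytosolic windows and 0 of 14 mitochondrial windows, against 3.97% of all 32851 promoters. The 5 were Aars, with a match at -112 and another at 10 relative to the start site (the start is base 1), Gars at -30, Iars at 8, Tars at -15 and Yars at 4. Below are the 120 bases before and 30 bases from the start for those 5, in lower case with the match in capitals (as its reverse complement where it lies on the other strand, as in all but Yars), followed by Eprs and Qars, which rose in PAP without a match in the window, and by Ears2, the member that fell.
Aars (chr8:111033722-111033871, plus strand): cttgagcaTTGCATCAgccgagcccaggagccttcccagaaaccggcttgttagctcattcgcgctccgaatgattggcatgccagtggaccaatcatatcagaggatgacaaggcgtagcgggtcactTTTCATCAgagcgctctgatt
Gars (chr6:55037881-55038030, plus strand): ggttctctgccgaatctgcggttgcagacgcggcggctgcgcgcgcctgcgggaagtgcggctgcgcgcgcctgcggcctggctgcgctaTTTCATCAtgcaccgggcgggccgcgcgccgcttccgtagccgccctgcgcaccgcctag
Iars (chr13:49682010-49682159, plus strand): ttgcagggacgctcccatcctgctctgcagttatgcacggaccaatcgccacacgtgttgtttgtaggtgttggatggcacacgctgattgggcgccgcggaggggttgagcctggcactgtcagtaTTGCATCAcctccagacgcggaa
Tars (chr15:11399629-11399778, minus strand): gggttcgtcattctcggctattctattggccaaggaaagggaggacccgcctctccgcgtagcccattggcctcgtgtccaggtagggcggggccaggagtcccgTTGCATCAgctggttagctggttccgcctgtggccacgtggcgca
Yars (chr4:129189783-129189932, plus strand): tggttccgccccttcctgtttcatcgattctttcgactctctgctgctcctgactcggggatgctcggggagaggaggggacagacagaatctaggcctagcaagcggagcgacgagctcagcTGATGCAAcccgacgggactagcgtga
Eprs (chr1:185362924-185363073, plus strand): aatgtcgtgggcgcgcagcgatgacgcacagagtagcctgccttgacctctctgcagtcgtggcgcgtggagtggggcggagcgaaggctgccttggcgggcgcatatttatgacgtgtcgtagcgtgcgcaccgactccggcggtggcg
Qars (chr9:108507885-108508034, plus strand): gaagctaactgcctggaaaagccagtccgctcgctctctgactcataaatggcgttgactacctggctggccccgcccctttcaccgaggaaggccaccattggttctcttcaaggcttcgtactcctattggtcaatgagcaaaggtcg
Ears2 (chr7:122067057-122067206, minus strand): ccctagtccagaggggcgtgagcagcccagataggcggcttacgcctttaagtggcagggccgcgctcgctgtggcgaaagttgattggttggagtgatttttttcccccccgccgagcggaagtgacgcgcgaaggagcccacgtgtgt
Of the 5 genes with the element, Iars and Tars were higher in PAP and Aars, Gars and Yars did not pass the test. A match describes letters in the window, not binding.

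Another 7 motifs were searched in the same way, on both strands. CCAAT, a common promoter box, was in 7 of 13 cytosolic and 6 of 14 mitochondrial windows (37.4% of all promoters). The E-box core CACGTG was in 4 cytosolic windows (Aars, Farsb, Iars and Tars) and in 1 mitochondrial window, Ears2 (7.15% of all). An ETS-type core, CCGGAAG, was in 5 cytosolic and 4 mitochondrial windows (8.86% of all). The cyclic AMP element TGACGTCA, the palindromic NRF1 and BANP motifs and the C/EBP palindrome TTGCGCAA were in 0 windows of either set, against 1.79%, 0.971%, 0.466% and 0.183% of all promoters.

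No mitochondrial synthetase passed the test as higher in PAP, and many were at 0 counts in PAP libraries. Of 17 genes, 0 were higher and 1, Ears2, was lower, where 5.92% and 15.4% of all genes tested were. The unadjusted p was under 0.05 for 0 higher and 1 lower, and DESeq2 also called 0 higher and 1 lower. Fits were negative for 13 of 17, and for 8904 of all 14618 genes tested. The median log2 fold change was -1.21, or -1.25 without Lars2, where that of all genes tested was -0.53. With the animal as a block that median was -3.87, and that of all genes tested -1.63. Leaving out a PAP library changed the number of synthetases called lower from 1 to 7 without animal 1 (the cytosolic Yars and 6 mitochondrial members), 4 without animal 2 and 2 without animal 3. In those fits 3214 of 16390, 2929 of 16431 and 3335 of 16523 genes tested were lower. Leaving out any Astro library changed the number of synthetases to 0, with 1 to 5 of all genes tested called lower. Ears2, Hars2 and Aars2 were lower in PAP with no overlap between the groups (35.1% of all genes tested were). Without Lars2 the set summed to 422, 351 and 347 CPM in Astro and to 283, 457 and 63.1 CPM in PAP, which overlap.

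Ears2 (ENSMUSG00000030871, chr7:122037213-122067263) charges mitochondrial transfer RNA with glutamate. It had 88, 106 and 114 counts in Astro and 0 in each PAP library. It passed the filter on low counts through the Astro libraries alone and was not tested at a mean of at least 100 counts, so its call is given as a description. Thinned to equal depth, the Astro libraries held 12, 12 and 11 counts. Against the floor of 3 counts per PAP library, and for counting error only, its PAP level was lower by at least 4.11-fold (adjusted p = 0.0208 in edgeR, and adjusted p = 0.206 with the animal as a block). That bound does not cover larger differences between PAP libraries, such as the 273, 0 and 316 counts of Rars in animals 1, 2 and 3. In mammals the Ears2 enzyme also loads glutamate on the mitochondrial glutamine transfer RNA, where a GatCAB amidotransferase converts it. Its exons overlap Ubfd1 on the opposite strand by 89 bases, and Ubfd1 had 599 to 1029 counts in PAP.

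Of the 17, only Lars2 and Iars2 had more than 3 counts in all 3 PAP libraries. Iars2 (isoleucine) was at 43.2, 43.4 and 31.8 CPM in Astro and at 84.7, 138 and 4.96 CPM in PAP, so animals 1 and 2 were above and animal 3 was below the Astro range. Its exons overlap Rab3gap2 on the opposite strand by 2034 bases. Fars2 (phenylalanine), the most abundant mitochondrial member per kilobase of exon in Astro after Lars2, gave 66.9, 77.2 and 55.9 CPM there and 21.9, 56.7 and 0 CPM in PAP. All 3 PAP values of Fars2 were below or inside its Astro range.

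The other mitochondrial members were present in PAP of some animals and not of others. Nars2, Rars2 and Cars2 had counts in PAP of animal 1 only, with 89, 66 and 25, although their Astro libraries held 418 to 844, 404 to 527 and 185 to 373 counts. Aars2 had 7 counts in PAP of animal 1 and 0 in the others. Pars2 and Sars2 had counts in PAP of animal 2 only, with 65 and 21. Yars2 (54, 78 and 0 counts) and Tars2 (24, 74 and 0 counts) lacked animal 3, while Hars2 (15, 0 and 53), Vars2 (2, 0 and 43), Wars2 (3, 0 and 79) and Mars2 (60, 0 and 1) lacked animal 2. In all, 4, 9 and 11 of the 17 genes were at 0 in PAP of animals 1, 2 and 3, and for cytosolic members it was 0, 1 and 1 of 20. As a share of PAP values this was 47.1% and 3.33%, beside 29.6% for all genes tested. Exons of Hars2 overlap Hars on the opposite strand by 198 bases, those of Cars2 overlap Naxd by 984 and those of Fars2 overlap Nrn1 by 920, so their counts are uncertain without a known strand setting.

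Detection was compared at equal depth by thinning every library to the smallest total. In Astro all 20 cytosolic and all 17 mitochondrial members kept more than 3 counts in every library. In PAP of animals 1, 2 and 3, 20, 18 and 19 cytosolic members did, and 11, 8 and 5 mitochondrial members. Of all genes tested, 89.0% to 90.0% passed that floor in Astro and 58.6% to 64.4% in PAP.

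**Figure D2:**
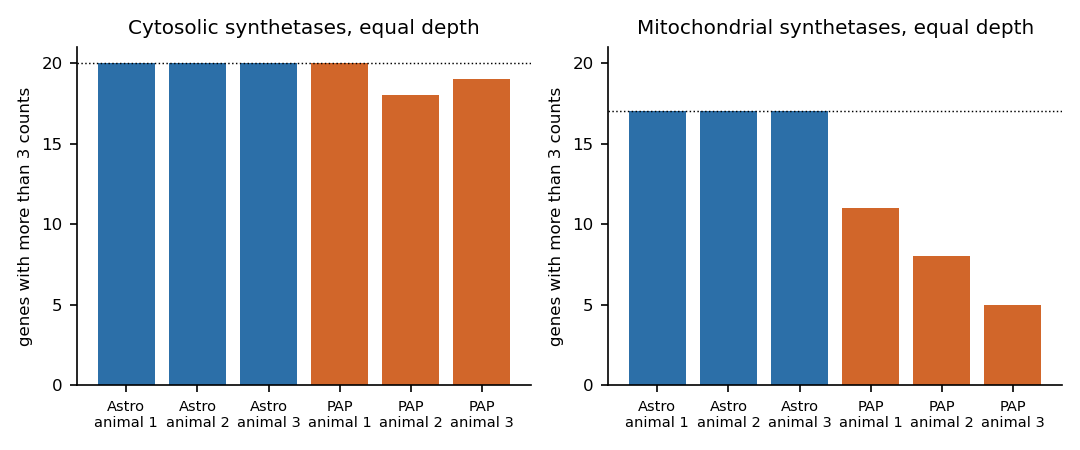
Number of synthetase genes (y axis) with more than 3 counts in each library after thinning to equal depth, with the number of genes in each set as a dotted line. Bars reach 18 to 20 of 20 for cytosolic genes in PAP and 5 to 11 of 17 for mitochondrial genes, while every Astro bar is at the dotted line.

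Because most mitochondrial members had fewer counts in Astro than most cytosolic members, members with a mean of 9 to 35 CPM in Astro were set side by side, a range chosen after the values were seen. The 9 cytosolic genes in it had more than 3 counts in 25 of 27 PAP values and 0 counts in 1. For the 11 mitochondrial genes, 13 of 33 PAP values were above 3 counts and 17 were 0. Among the 4575 genes tested in the same range, 56.2% of PAP values were above 3 counts and 33.5% were 0. Astro means ran from 14.2 to 34.8 CPM for the cytosolic genes and from 9.25 to 32.4 CPM for the mitochondrial genes. Their medians were 21.3 and 14.4 CPM, and 17.9 CPM for all genes in the range, so the mitochondrial set was lower in level. Just above the range lay Hars2, Nars2 and Iars2, at 35.9, 36.7 and 39.5 CPM in Astro. These had more than 3 counts in 2, 1 and 3 PAP libraries. Median PAP means were 94.4, 10.3 and 14.3 CPM.

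The counts of a PAP library were spread over its 8 technical replicates, and a library at 0 is at 0 in each of them by construction. Pars2 had 3 to 15 counts in each of the 8 technical replicates of PAP animal 2 and 0 in every technical replicate of the other PAP animals. Rars had 24 to 47 and 32 to 47 counts per technical replicate in PAP of animals 1 and 3 and 0 in all 8 of animal 2. Wars had 9 to 22 and 3 to 12 in animals 1 and 2 and 0 in all 8 of animal 3. The labels give 10 ng of RNA amplified for each preparation, and whether loss of transcripts at that step bears on these values was not tested.

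Pairs of enzymes for the same amino acid were compared within libraries on the RPKM scale, which divides CPM by the kilobases of exon of the gene. There were 18 pairs of a mitochondrial gene with a cytosolic counterpart (Fars2 with each subunit, Pars2 and Ears2 each with Eprs). The cytosolic level was higher in all 3 Astro libraries for 11 pairs and in all 3 PAP libraries for 12. Iars2 was above Iars in every Astro library, at 3.58 to 4.88 against 1.70 to 3.35 RPKM, and below it in every PAP library, at 0.558 to 15.5 against 7.46 to 25.6 RPKM. Tars2 was above Tars in Astro of animals 1 and 2 only, and Tars lay above it in all PAP libraries, at 9.52 to 30.8 against 0 to 5.50 RPKM. Lars2 was above Lars in all 6 libraries.

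On the same scale, the order of members differed between compartments. In Astro, after Lars2 (195 ± 44.6 RPKM, SD, n = 3), the highest were Dars (37.4 ± 4.06 RPKM), Hars (33.5 ± 4.50 RPKM), Nars (31.2 ± 3.58 RPKM) and Farsb (26.5 ± 4.56 RPKM), and neighbours in this order overlapped between libraries. Vars was at rank 28 of 37 in Astro, with 3.02 ± 1.20 RPKM, and at rank 6 in PAP, with 34.4 ± 16.3 RPKM. Qars moved from rank 27 to 10, Cars from 32 to 16 and Iars from 30 to 14, while Dars moved from 2 to 11 and Wars from 6 to 20. In PAP the highest after Lars2 were Farsb (73.1 ± 22.7 RPKM), Nars (67.3 ± 15.03 RPKM), Gars (52.6 ± 53.2 RPKM) and Hars (51.5 ± 68.7 RPKM), and for Gars and Hars the SD exceeded the mean.

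**Figure D3:**
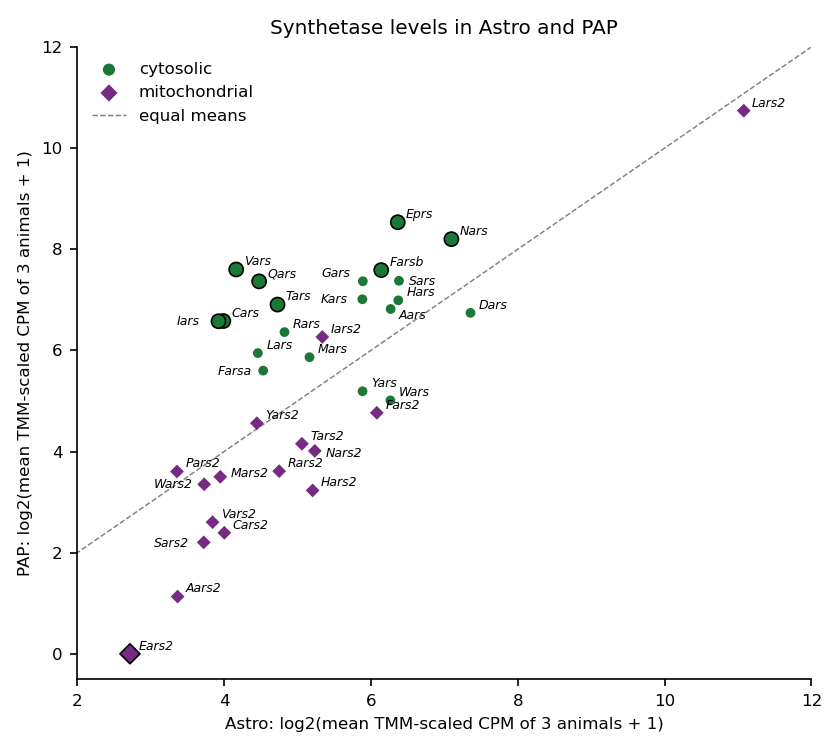
Mean level of 36 of the 37 synthetases in PAP (y axis) against Astro (x axis), as log2(mean TMM-scaled CPM of 3 animals + 1), with cytosolic genes as circles, mitochondrial genes as diamonds and a dashed line of equal means. Large outlined symbols are the 9 genes with an edgeR adjusted p under 0.05, 8 cytosolic ones above the line and Ears2 below it.

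At full depth, where PAP libraries held fewer counts, libraries also differed more in PAP than in Astro in the pattern over members. Across the 20 cytosolic genes, log2(CPM + 1) correlated at 0.93 to 0.95 between Astro libraries and at 0.17 to 0.53 between PAP libraries. Across the 16 mitochondrial genes other than Lars2, it was 0.84 to 0.92 between Astro libraries and -0.26 to 0.03 between PAP libraries. Genes of a library share its depth and are not independent, so these values only describe the libraries. The PAP sum of cytosolic members was highest in animal 1 and lowest in animal 3 (3494, 2636 and 1773 CPM), the reverse of the astrocyte marker sums of the same libraries (4748, 10492 and 18786 CPM) and the same as the B lineage sums (5712, 3409 and 2705 CPM). A relation over 3 libraries was not tested, and the part of these markers in the synthetase values was not tested.

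Lars2, the mitochondrial leucine enzyme (ENSMUSG00000035202, chr9:123366927-123462666), dominated its set and is reported as uncertain. It held 37777, 46200 and 34486 counts in Astro and 3086, 2306 and 7158 in PAP, which was 72.2% to 97.4% of all mitochondrial synthetase counts in a library. At 2029, 2711 and 1751 CPM in Astro and 1575, 1189 and 2365 CPM in PAP it did not pass the test (log2 fold change -0.34 ± 0.32, SE; edgeR adjusted p = 0.565), and the groups overlapped. The noncoding gene Gm15564 followed it closely, with 0.335 to 0.341 counts per Lars2 count in Astro and 0.338 to 0.366 in PAP. A transcript of Gm15564 matched bases 3278 to 3349 of a Lars2 transcript at 98.6% over 72 bases, in the 3' untranslated region, so reads there could be assigned to either gene. Counts of the mitochondrial 16S ribosomal RNA gene mt-Rnr2 kept no such ratio, with 0.0135 to 0.392 per Lars2 count. Gene counts do not show whether these reads came from Lars2 mRNA.

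**Figure D4:**
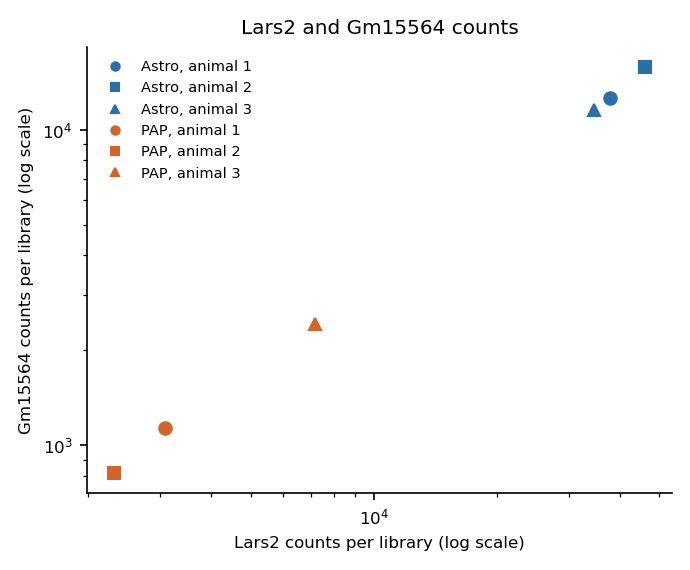
Counts of Gm15564 (y axis) against counts of Lars2 (x axis) in the 6 libraries, both on log scales, with colour for the compartment and shape for the animal. The 6 points lie close to a straight line, at 0.335 to 0.366 Gm15564 counts per Lars2 count.

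Partners of the synthetases were read from lists of related genes. The 12 cytosolic charging partners included scaffolds, editing enzymes and transfer RNA export or maturation factors. They also included Sepsecs and Pstk, of selenocysteine charging, and Tarsl2, a threonine synthetase that the symbol rule does not match. Of these 12, 1 was higher in PAP and 0 lower, against 5.92% and 15.4% of all genes tested. It was Aimp1, a scaffold of the multisynthetase complex that binds transfer RNA, at 27.6, 21.8 and 28.1 CPM in Astro and at 143, 101 and 100.5 CPM in PAP. Its log2 fold change was 2.15 ± 0.48 (SE; edgeR adjusted p = 0.0237, and adjusted p = 0.206 with the animal as a block). The other scaffolds did not pass the test and lay below Astro in all 3 PAP libraries: Aimp2 gave 36.2 to 43.8 CPM in Astro and 0, 28.3 and 2.64 CPM in PAP, and Eef1e1 gave 68.4 to 83.1 CPM in Astro and 46.9, 10.3 and 40.6 CPM in PAP. Of the 12 partners, 4 were lower in PAP with no overlap between the groups, as were 35.1% of all genes tested. The median log2 fold change of the 12 was -0.40, near the -0.53 of all genes tested.

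Of 17 mitochondrial charging and elongation partners, 0 were higher and 2 were lower in PAP, where 5.92% and 15.4% of all genes tested were. Gatb, a subunit of the amidotransferase that completes mitochondrial glutamine charging after Ears2, had 351, 322 and 376 counts in Astro and 1, 0 and 0 in PAP (edgeR adjusted p = 0.0229, and adjusted p = 0.206 with the animal as a block). It passed the filter on low counts through Astro alone. The other subunits, Gatc and Qrsl1, did not pass the test. Gfm1, a mitochondrial elongation factor, stood at 191, 152 and 173 CPM in Astro and at 50.5, 47.9 and 45.3 CPM in PAP, with very little spread between PAP animals. It fell by 1.84 ± 0.37 on the log2 scale (SE; edgeR adjusted p = 0.0208, and adjusted p = 0.206 with the animal as a block).

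Genes of the amino acid response were read in the same way. The list held Atf4, genes linked to it, and Eif2ak4, Eif2ak3 and Eif2s1, which act upstream of it. Of 21 genes, 20 were tested, 5 were higher and 2 lower in PAP, beside 5.92% and 15.4% of all genes tested. Asns, the asparagine synthetase (an amino acid producing enzyme and not a transfer RNA synthetase), had the largest rise, from 15.1, 15.2 and 28.6 CPM in Astro to 633, 174 and 393 CPM in PAP. The change was 4.35 ± 0.63 (SE; edgeR adjusted p = 0.0182, and adjusted p = 0.0611 with the animal as a block). Slc7a1, a transporter of cationic amino acids, rose by 4.34 on the log2 scale, the transcription factor Atf5 by 3.57, the serine hydroxymethyltransferase Shmt2 by 3.16 and the translation repressor Eif4ebp1 by 2.23 (edgeR adjusted p of 0.0208 to 0.0222). With the animal as a block their adjusted p in edgeR was 0.206, 0.206, 0.189 and 0.206. Slc7a11, the cystine transporter, and Eif2ak4, the kinase that senses uncharged transfer RNA, were lower (edgeR adjusted p of 0.0208 for each). Slc7a11 had 231, 318 and 429 counts in Astro and 0, 0 and 1 in PAP, and Eif2ak4 had 54, 77 and 47 in Astro and 0 in all PAP libraries, with an edgeR adjusted p of 0.206 for each with the animal as a block. Both passed the filter on low counts through Astro alone. The Astro level of Eif2ak4, 2.39 to 4.52 CPM, is close to the 0.991 to 1.55 CPM that 0 counts allow in PAP for counting error only. Atf4 itself read 91.7, 89.3 and 95.6 CPM in Astro and 118, 210.3 and 343 CPM in PAP, without overlap, at an edgeR adjusted p of 0.106. Of 12 synthetases reported as ATF4 targets, 5 (Cars, Eprs, Iars, Nars and Tars) were among the 8 that rose, as were 3 of the 8 cytosolic synthetases outside that list, and this list was written with results of these data known.

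**Figure D5:**
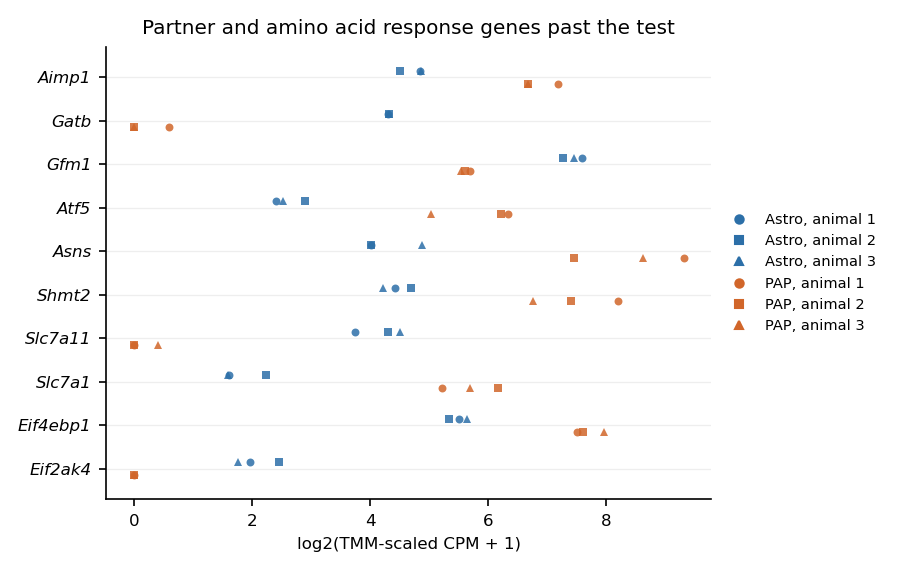
Levels of the 10 partner and amino acid response genes with an edgeR adjusted p under 0.05, as log2(TMM-scaled CPM + 1), with a point for each of the 6 libraries, colour for the compartment and shape for the animal. Aimp1, Atf5, Asns, Shmt2, Slc7a1 and Eif4ebp1 lie to the right in PAP, and Gatb, Gfm1, Slc7a11 and Eif2ak4 to the left.

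By catalytic fold the synthetases belong to either of 2 classes of unrelated ancestry. Eprs joins a glutamate enzyme of class I to a proline enzyme of class II, and it was counted in class I alone. So counted, class I held 19 members, of which 5 were higher (Vars, Qars, Iars, Cars and Eprs) and 1 lower (Ears2). Class II held 18 members, of which 3 were higher (Tars, Farsb and Nars) and 0 lower. Over all genes tested 5.92% were higher and 15.4% lower, and with the animal as a block 0 members of either class were called. Other parts of the translation machinery were counted in the same way, against the same shares of all genes tested. Of 81 cytosolic ribosomal protein genes tested, 76 were higher in PAP and 0 lower (median log2 fold change 3.12), although reads of these genes can be split with processed pseudogenes. Of 78 mitochondrial ribosomal protein genes, 4 were higher, near the 5.92% of all genes tested, and 2 lower, under the 15.4% (median -0.28), and the sum of all 78 was 7707 to 7978 CPM in Astro and 7366 to 7969 CPM in PAP. Of 53 translation initiation factors tested, 11 were higher and 2 lower (median 0.44). With the animal as a block 53, 0 and 1 genes of these 3 groups were higher. The difference between cytosolic synthetases and these groups was not tested.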

How the data were processed

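Polysomal RNA was measured in 6 libraries (Astro and PAP of 3 animals). The authors deposited raw counts per Ensembl gene for 48 technical replicates. Per the submitters' processing notes, these used bcl2fastq 2.18.0.12, Trim Galore 0.4.1, STAR 2.5.2b, SAMtools, HTSeq 0.5.3 and mm10. Strand setting and annotation release are not given in the sources used here, so members that overlap a gene on the opposite strand are uncertain. Counts were summed over the 8 technical replicates of a library. Symbols, positions and exon lengths came from GENCODE M21 on GRCm38 (47224 of 47643 identifiers matched).

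All genes were fitted in edgeR 4.0.16 (R 4.3.3): filterByExpr with a minimum count of 10, TMM factors, quasi-likelihood test of group alone, Benjamini-Hochberg adjustment over 14618 genes and a threshold of 0.05. Fold changes are PAP over Astro. CPM uses the TMM factors, and RPKM divides it by exon length. The script was tested on simulated data. BLAST 2.17.0 compared the transcripts of Lars2 and Gm15564.

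Libraries of the same number come from the same animal per the labels. Deviations of same-animal libraries from their group means correlated at 0.033, 0.018 and -0.027 across genes, and the blocked model was an alternative. P-values rest on the spread between the libraries of a group, in which animal and preparation cannot be told apart. Other alternatives were DESeq2 1.42.0, its size factors, library totals, other filters, thinning to equal depth, technical replicates 1 to 4 or 5 to 8, and leaving out each library. Members given library by library were those past the threshold, those above 3 counts in all PAP libraries, the 10 most abundant in Astro, and those split between PAP libraries (3 counts or fewer in 1 and at least 100 in another). Listed partner genes past the threshold were named. Members, lists and tests were chosen with earlier results of these data known. Values of 1 member and 1 marker are not reported here.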

Additional observations from a re-analysis of the deposited data

How the results depend on the processing

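The count of synthetases higher in PAP was 8 with DESeq2 size factors, library totals alone, equal depth or a mean of at least 100 counts, 9 with the DESeq2 test and 6 with technical replicates 1 to 4. It was 1 without a filter on low counts, 5 with technical replicates 5 to 8 and 0 with the replicate block. Leaving out a library gave 0 to 8: 0 without any of the 3 Astro libraries (8 at an unadjusted p under 0.05 each time; adjusted p of the 9 calls, Ears2 included, from 0.0672 to 0.202), 3 without PAP of animal 1, 5 without PAP of animal 2 and 8 without PAP of animal 3. The count lower in PAP was 1, or 0 at a mean of at least 100 counts (Ears2 was not tested there) and with the replicate block, and 0 to 7 without a library: 0 without any Astro library, 7 without PAP of animal 1, 4 without PAP of animal 2 and 2 without PAP of animal 3. Of the 9 calls, Vars was kept in 11 of 15 alternatives, Cars and Qars in 10 of 15, Ears2 in 10 of 14, Eprs and Iars in 8, Tars in 7 and Farsb and Nars in 6. All 9 kept their direction in the alternatives that tested them.

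Over all genes, the count higher in PAP went from 865 to 1685 with DESeq2, 571 without a filter and 128 with the replicate block, and from 114 to 1251 when a library was left out. The count lower went from 2250 to 3456 with DESeq2, 1023 at equal depth, 826 at a mean of at least 100 counts and 5 with the replicate block, and from 1 to 3335 without a library. The median log2 fold change of mitochondrial members was -3.87 with the replicate block, where that of all genes was -1.63, and from -1.32 to -0.76 without a library. That of cytosolic members was 0.97 with the replicate block and from 0.87 to 1.46 without a library. DESeq2 size factors moved the median of all genes from -0.53 to -0.46 and equal depth to -0.23. At the depth of PAP a value of 0 counts allows up to 0.991 to 1.55 CPM, for counting error only.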
